A study of Mus musculus with 2 samples.

Results

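B cells were picked out of single-cell RNA-seq of mouse pancreatic tumours by their own transcripts, and 467 of 22472 cells met the rule: 458 of 10808 in the knockout library and 9 of 11664 in the control library. A cell had to hold at least 500 genes, at most 15% mitochondrial transcripts and at least 2 transcript counts (UMIs, unique molecular identifiers) of Cd79a, Ms4a1 and Bank1 together. It also had to stay under 10 UMIs of Jchain, with at most 1 of Cd3d, Cd3e, Cd3g and Trac, at most 2 of C1qa, C1qb and C1qc, and at most 5 of Krt8, Krt18 and Krt19. The cells were thus selected on measured counts, and the levels of those genes are given as a description only. The study implanted KPC cells, a mouse pancreatic cancer line, orthotopically, and took the tumours at day 21. The control group was Porcn fl/fl without Cre, from the same litters, and the knockout group was Csf1r-Cre;Porcn fl/fl, so both carried the floxed Porcn allele, and Cre ran from the promoter of Csf1r, a receptor gene of macrophages and monocytes. Strain, age and sex are not given in the sources used here. The tumours of 5 mice were pooled into 1 library per genotype. With 1 library per genotype the genotypes cannot be tested against each other, and no p-value is printed. Ranges in parentheses are 95% intervals by exact methods; they describe counting error, and the spread between mice is unknown.

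B cells recognise antigen through a surface immunoglobulin that signals with the chains encoded by Cd79a and Cd79b. A mature B cell that has not met antigen carries IgM and IgD from one transcript that is spliced in alternative ways, and reads the genes Ighm and Ighd. After activation, often in a germinal centre, the heavy-chain locus can switch to an IgG, IgA or IgE constant region, and the daughter cells become memory cells or plasma cells. In tumours, B cells can gather with T cells in lymphoid aggregates, and they can present antigen on MHC class II.

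The label was checked with genes that the rule did not use. Pax5, the transcription factor that holds B identity, had a UMI in 77.7% of the 458 knockout B cells (73.6 to 81.5) and in 0 of 1576 T cells of the same library. Ebf1, a partner of Pax5 in early B development, was detected in 96.9% of B cells and 2.0% of T cells, and Cd79b in 90.2% and 1.2%. Plasma cells, taken as cells with at least 10 Jchain UMIs, had Cd79b in 88.8% but Pax5 in 5.9%, Cd22 in 3.6% and Ighd in 3.6% of cells. These shares are not thinned, and plasma cells were deeper, with a median of 15520 UMIs against 2991.5 in B cells. The B cell population therefore held the defining B genes. T cells, macrophages and keratin-positive cells were selected to hold few or no UMIs of the rule's genes, so their shares for Cd79a, Ms4a1 and Bank1 are not compared.

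**Figure D1:**
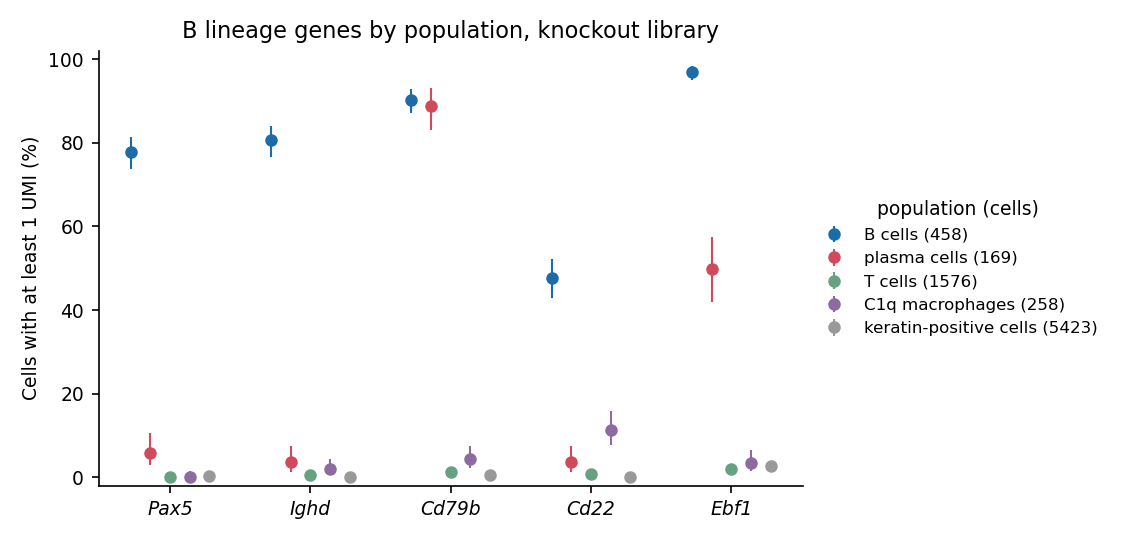
Share of cells with at least 1 UMI (%) of 5 B lineage genes in 5 populations of the knockout library; points are shares and bars exact 95% binomial intervals. Pax5 was found in 77.7% of B cells and 5.9% of plasma cells, while Cd79b was detected in 90.2% and 88.8%. The shares are not thinned, and the median depth was 2991.5 UMIs in B cells and 15520 in plasma cells. Similar shares therefore do not give similar levels.

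At the threshold of the rule, 14 knockout cells held exactly 2 UMIs of the B genes, of which 5 had Pax5 and 4 had Ighd. Among the 46 knockout cells with 1 such UMI, just outside it, 1 had Pax5 and 0 had Ighd. The keratin limit kept out 35 knockout cells that passed every other criterion, and 29 of those had Pax5. The Jchain limit kept out 144 cells, of which 10 had Pax5. Inside the rule, 11 of the 458 knockout cells also held at least 50 UMIs of another cell type's genes. Of these, 7 held 69 to 636 UMIs of fibroblast genes such as Col3a1 and Dcn, 1 held 891 UMIs of acinar enzyme genes, and 2 held 190 and 198 UMIs of Lyz2, a myeloid lysozyme. The remaining cell held 29545 UMIs of the islet hormone genes Ins1, Ins2 and Iapp, which was 57.9% of its transcripts. Scrublet, a doublet caller, marked 3 knockout B cells, 2 of them among these 11. Main results are also given without the 11 cells. Marker lists of other types were low: 15 T cell markers summed to 153 CPM in B cells, with 2 at 0, against 7971 CPM in T cells, and 8 neutrophil markers summed to 24.7 CPM. The T cell list includes Cd3d, Cd3e, Cd3g and Trac, which the rule limits in B cells and which chose the T cells. Part of that gap was therefore fixed by selection. The 7 fibroblast markers summed to 1316 CPM with the 11 cells and 64.0 CPM without them, and the 14 acinar markers to 623 CPM and 105 CPM.

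B cells were 4.24% of knockout cells (3.87 to 4.63) and 0.0772% of control cells (0.0353 to 0.146). The ratio of the shares was 54.9 (28.7 to 121) for these 2 libraries. Among cells with a UMI of Ptprc, which encodes the pan-leukocyte protein CD45, B cells were 11.2% in the knockout library and 0.593% in the control library, a ratio of 18.8 (9.05 to 47.1). Knockout B cells had a median of 2991.5 UMIs, and control B cells had 1931. Other populations that were larger in the knockout library were T cells, at 1576 against 173 cells, plasma cells, at 169 against 43, and type 1 dendritic cells, at 71 against 31. C1q macrophages numbered 258 against 265, and keratin-positive cells 5423 against 8837. The T cell marker list stood at 499 CPM (UMIs per 1000000) in all knockout cells against 43.9 CPM in all control cells, with 0 of 15 markers at 0 in each. Genes of pancreatic acinar cells moved as well, from 81.7 CPM in control to 1498 CPM in knockout, with 0 of 14 at 0. The 12 genes listed for lymphoid stroma and high endothelium, with 14 identifiers in the files, summed to 74.9 CPM in control (3 at 0) and 83.2 CPM in knockout cells (2 at 0). Among them, Ccl21a, a chemokine gene of lymphoid stroma, went from 1.85 CPM (1.66 to 2.07) to 9.13 CPM (8.63 to 9.66). Cxcl13, which draws B cells into follicles, stood at 9.32 CPM (8.87 to 9.79) and 12.8 CPM (12.2 to 13.4). Cxcl12, a chemokine gene of stroma, was lower in the knockout library, at 37.8 CPM (36.8 to 38.8) against 48.3 CPM (47.2 to 49.3), and Madcam1, Glycam1 and Chst4 of high endothelium had at most 18 UMIs in a library. Tnfsf13b, which encodes the B cell survival factor BAFF, was read at 1.83 CPM (1.63 to 2.04) in the control library, below the 4.0 CPM (3.67 to 4.36) of the knockout library. Whether tissue other than tumour was taken with the knockout tumours cannot be told apart from the genotype, and the part of these values in the B cell share was not tested. Fewer cells of the other types in a library also raise a share.

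Porcn, the gene deleted by Cre, encodes the enzyme that lets Wnt proteins be secreted. It had 0 UMIs in the 458 knockout B cells and 0 in the 9 control B cells. A count of 0 allows up to 1.77 CPM of Porcn in the first and up to 71.3 CPM in the second, so B cells give no check of the genotype. Over all control cells Porcn was read at 7.22 CPM (6.82 to 7.63), and over all knockout cells at 4.95 CPM (4.59 to 5.34), but a 3′ read need not cover the deleted part.

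Most knockout B cells carried unswitched heavy chains. Ighd was read in 80.6% of the 458 cells (76.6 to 84.1), with a median of 2 Ighd UMIs per cell. With every cell thinned to 1000 UMIs, which left 452 cells, the expected share was 54.8% (50.1 to 59.5), against 0.139% of T cells thinned in the same way. Both Ighm and Ighd were present in 357 cells (77.9%). Cells with at least 3 UMIs of Ighg, Igha and Ighe genes, and more of these than of Ighm and Ighd, are called class-switched here. There were 37 of them, or 8.08% (5.75 to 10.96). The islet hormone cell was 1 of the 37, with 51068 UMIs, 57.9% of them from hormone genes. Its UMIs lower the CPM of other genes in that subset. The same rule was met by 10 of 1576 T cells, or 0.635% (0.305 to 1.16), as the background of the rule in cells that should lack it, and by 154 of 169 plasma cells (91.1%). Another 368 cells held Ighd and were not switched (80.3%; 76.4 to 83.9), here Ighd-positive, and 53 cells met neither rule. Of the control B cells, 4 of 9 were Ighd-positive and 0 of 9 were class-switched, which allows a share of up to 33.6% by the exact interval.

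**Figure D2:**
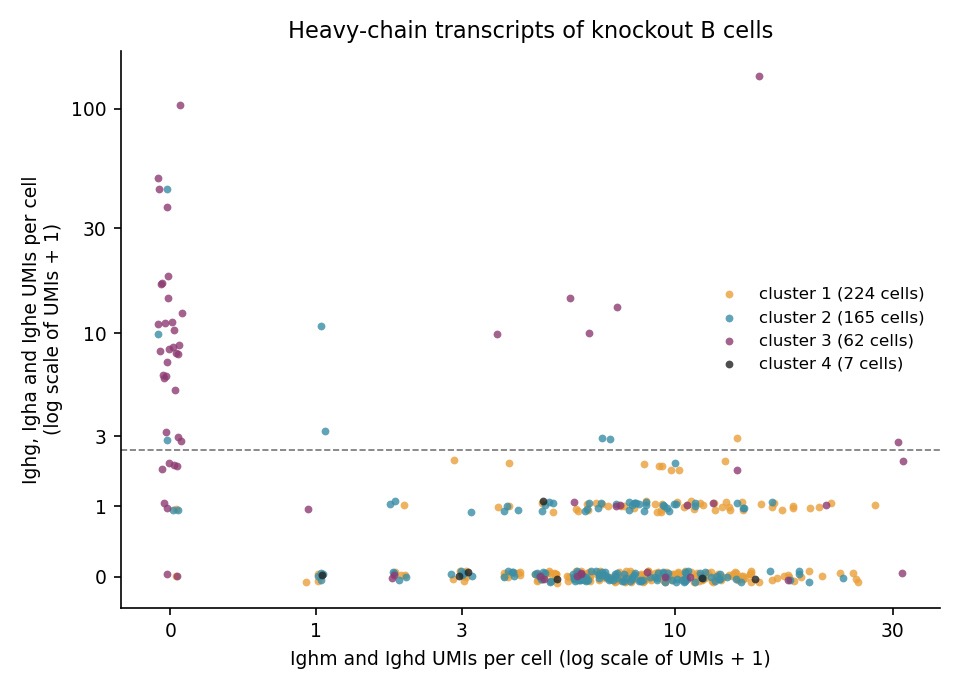
UMIs per cell of Ighm and Ighd (x axis) against UMIs of Ighg, Igha and Ighe (y axis) in 458 knockout B cells, each on a log scale of UMIs + 1 with a small random shift; the dashed line lies between 2 and 3 switched UMIs and colour gives the cluster. Ighm was present in 7 of the 37 class-switched cells, most of which stand at the left edge, and 32 of the 37 class-switched cells fell in cluster 3.

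Igha, the constant region of the mucosal antibody IgA, led in 17 of the class-switched cells, and an Ighg gene led in 19. Within the IgG group Ighg2c led most often, in 9 cells. Igha thus led in 45.9% of class-switched B cells (29.5 to 63.1). Among all plasma cells of the same library it led in 25 of 169 (14.8%, 9.81 to 21.1), and an Ighg gene in 129 (76.3%, 69.2 to 82.5). These plasma shares are over all 169 cells, of which 154 were class-switched. Jchain UMIs also set the B and plasma cells apart. Class-switched B cells held a median of 10 switched UMIs and 0 Ighm UMIs, against 0 and 5 in Ighd-positive cells. Jchain, which joins secreted IgA and IgM and is high in plasma cells, had 46 UMIs over the 37 class-switched cells and at most 9 in any, as the rule requires. The median depth was 7068 UMIs in class-switched and 2940 in Ighd-positive cells, and the part of depth in the difference between the subsets was not tested.

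Light chains were of both kinds. Of 169 knockout B cells that could be called, 128 were called kappa and 41 lambda. Kappa thus made up 75.7% of calls (68.6 to 82.0), although the rule asked more of kappa than of lambda. Igkc was read in 445 of the 458 cells and lambda constant genes in 442, so most cells held both. The calls therefore give the leading transcript and do not settle which chain a cell used. Class-switched cells gave 16 kappa and 2 lambda calls, and Ighd-positive cells 93 and 33, with intervals for the kappa share of 65.3 to 98.6% and 65.2 to 81.2% that overlapped. A further 289 cells were left uncalled because they held both kinds of transcript or too few UMIs. T cells of the library gave 104 kappa calls and 0 lambda calls in 1576 cells. A heavy-chain variable gene could be called in 6 cells, and these used 6 different genes, so the spread of clones cannot be read from this 3′ library.

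The next comparison asked how class-switched and Ighd-positive B cells of the knockout library differed in other genes. UMIs were summed over the cells of each subset, and a gene counted as higher or lower when the log2 ratio, with 1 UMI added to each sum, was at least 1 in size. Immunoglobulin genes were left out. Of 7387 genes with at least 20 UMIs, 643 were higher in class-switched cells (8.7%) and 1070 lower (14.5%), with a median log2 ratio of -0.08. Without the 11 cells that held another type's genes, 714 of 6985 were higher (10.2%) and 850 lower (12.2%), with a median of 0.01. All cells came from 1 library, so these are ratios with counting intervals and not tests, and the list counts below are read against those 8.7% and 14.5%. With 5 UMIs added in place of 1, which weighs more in the smaller sum of the class-switched cells, 826 genes were higher and 419 lower.

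Genes of resting, recirculating B cells were lower in class-switched cells. Fcer2a (chromosome 8, 3681737 to 3694175 on GRCm38), the low-affinity IgE receptor CD23 of follicular B cells, stood at 248 CPM (220 to 278) in Ighd-positive and 5.66 CPM (0.686 to 20.5) in class-switched cells, a log2 ratio of -4.87 (-8.50 to -3.58). It was read from 289 UMIs on one side and 2 on the other. Cr2 (chromosome 1, 195136811 to 195176716), the complement receptor CD21, stood at 213 CPM and 8.50 CPM, with 249 and 3 UMIs and a log2 ratio of -4.24 (-6.94 to -3.09). After thinning to 1000 UMIs, the expected share of cells with Fcer2a was 21.2% of Ighd-positive and 1.09% of class-switched cells, and with Cr2 17.8% and 1.33%. Foxp1, a repressor of plasma cell differentiation that marks resting mature B cells, went from 2019 UMIs and 1729.9 CPM to 39 UMIs and 110 CPM, a log2 ratio of -3.93 (-4.47 to -3.51). It was also the best-measured of the 10 genes furthest on this side. Others were Satb1 (log2 -3.996), a chromatin organiser, Rasgef1b (-3.78), Zfp318 (-3.24), which is needed for the splicing that makes IgD, Cd55 (-3.19), Zfp608 (-3.13) and Zfp36 (-3.04). Without the 11 cells these 10 ratios lay between -4.71 and -2.86.

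The promoters of Fcer2a and Cr2 are shown because these genes head that side and were lower together. Each line gives 250 bases before the annotated start, 5′ to 3′ on the gene's own strand, from RefSeq on GRCm38.p6. Capitals mark the letters GGAAGT or the same motif on the opposite strand, ACTTCC, a core of sites for ETS factors such as PU.1.
Fcer2a, chr8:3694175-3694424, minus strand: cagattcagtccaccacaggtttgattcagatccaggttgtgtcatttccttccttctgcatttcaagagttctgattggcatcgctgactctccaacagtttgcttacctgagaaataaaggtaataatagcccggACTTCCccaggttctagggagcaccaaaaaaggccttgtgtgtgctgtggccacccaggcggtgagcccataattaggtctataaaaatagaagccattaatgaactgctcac
Cr2, chr1:195176720-195176969, minus strand: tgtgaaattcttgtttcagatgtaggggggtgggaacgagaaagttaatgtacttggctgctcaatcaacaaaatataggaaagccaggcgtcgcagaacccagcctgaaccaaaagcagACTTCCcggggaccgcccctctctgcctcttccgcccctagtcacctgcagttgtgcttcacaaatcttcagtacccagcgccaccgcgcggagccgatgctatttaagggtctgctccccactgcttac
Each window held 1 match, but only windows of Fcer2a and Cr2 with a match were printed, so its presence was fixed by that choice. Of all 32851 promoter windows of 250 bases in the table, 19.7% held the motif on either strand. Of the 10 genes furthest on the lower side, 8 had a window and 3 of those held it. A match describes the letters and is not a bound site.

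Genes of dividing cells were higher in class-switched cells. Mki67, a marker of cycling cells, had 67 UMIs in 37 class-switched cells, or 189.8 CPM (147 to 241), and 2 UMIs in 368 Ighd-positive cells, or 1.71 CPM (0.208 to 6.19). Its log2 ratio was 6.23 (4.88 to 9.87). Top2a, the topoisomerase of replicating chromosomes, had 98 and 9 UMIs and a log2 ratio of 5.03 (4.19 to 6.34). A single cell held 47.8% of the Mki67 UMIs and 36.7% of the Top2a UMIs of the class-switched cells. At least 2 UMIs of Mki67 and Top2a together were found in 10 of 37 class-switched cells (27.0%; 13.8 to 44.1), in 4 of 53 cells of neither subset, and in 0 of 368 Ighd-positive cells, which allows up to 0.997% by the exact interval. After thinning, the expected Top2a share was 11.1% and 0.598%. Of 24 proliferation genes, 13 had enough UMIs, all 13 were higher and their median log2 ratio was 2.80, beside -0.08 for all genes. The other 11 had too few UMIs, so the count covers members that could be read and not the whole list. The filter summed UMIs over both subsets, so a gene such as Mki67, with 67 and 2 UMIs, passed it through the side where it was higher. The count of 13 and the median are thus partly set by the filter and are a description only. Summed over all 24 genes, the level was 2345 CPM in class-switched, 314 CPM in Ighd-positive cells and 1954 CPM in cells of neither subset, with 26.6% of the first from 1 cell. The 13 included Stmn1 (log2 2.80) and Pcna (1.11), the clamp of DNA polymerase.

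Several surface and signalling genes went with that pattern. Cxcr3 (chromosome X, 101731535 to 101734269), a receptor for interferon-induced chemokines, was found in 48.6% of class-switched and 0.815% of Ighd-positive cells, with 30 and 3 UMIs and a log2 ratio of 4.68 (3.36 to 7.40). Its thinned shares were 10.7% and 0.148%. Plasma cells of the library read Cxcr3 at 118 CPM, above the 85.0 CPM of class-switched cells and the 20.03 CPM of all B cells. Bhlhe41 (chromosome 6, 145858243 to 145865558), a transcription factor of memory and B1 cells, had 31 and 6 UMIs and a log2 ratio of 3.92 (2.81 to 5.65). It was found in 59.5% and 1.63% of cells, and its thinned shares were 11.9% and 0.451%. Fas, the death receptor that is raised on activated B cells, had a log2 ratio of 3.31 (2.24 to 4.78). Hmgn3 (4.61), Sema7a (4.43), Ass1 (4.38), Rbm47 (4.25) and Ly6c2 (4.17) were the other named genes with UMIs on each side. Rbm47 and Ly6c2 were read at 193 CPM and 1823 CPM in plasma cells. Pik3r6, a regulator of PI3K gamma, had 26 UMIs in class-switched and 0 in Ighd-positive cells. Against a floor of 3 counts over the subset it was 28.6-fold higher, and its log2 interval began at 4.44. Gm47957 had 30 and 0 UMIs and was 33.1-fold higher against that floor, with a log2 interval from 4.66.

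**Figure D3:**
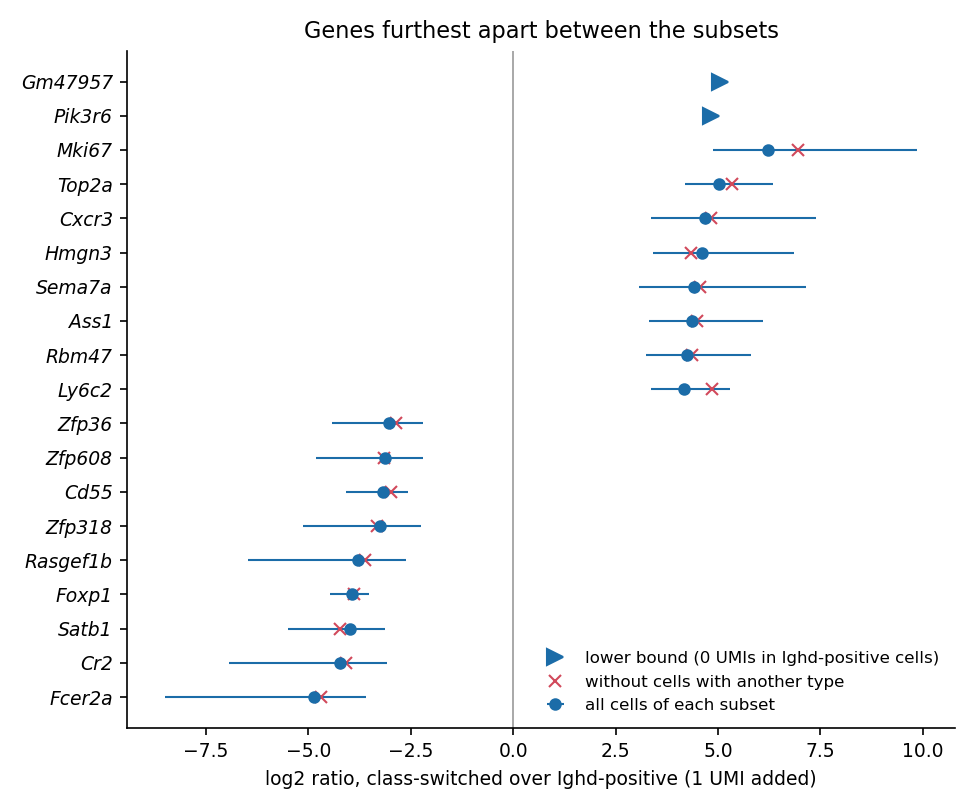
Log2 ratio of class-switched over Ighd-positive knockout B cells (1 UMI added to each sum) for the 10 highest genes and 9 of the 10 lowest; bars are exact 95% counting intervals, triangles are lower bounds for genes with 0 UMIs in Ighd-positive cells, and crosses leave out the cells with another type's genes. Top2a lay at 5.03 and Fcer2a at -4.87, and each cross lay on the same side of 0 as its point.

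Among transcription factors and receptor signalling genes, more were lower than higher in class-switched cells. Of 21 B lineage factors, 9 were lower and 2 higher, with a median of -0.94. With the 11 cells left out, 8 were lower and 2 higher, with a median of -0.68. Pax5 (log2 -2.43), Bach2 (-2.43), which delays plasma cell differentiation, Bcl6 (-2.11), the germinal centre repressor, Klf2 (-1.90) and Ebf1 (-1.62) were among the lower. Xbp1 (1.97), which builds the secretory apparatus, was the other higher gene beside Bhlhe41. Of 20 genes of antigen-receptor signalling, 8 were lower and 0 higher, among them the kinases Blk (-1.47) and Syk (-1.11) and the adaptor Blnk (-1.16). Without the 11 cells 3 of the 20 were lower, beside 12.2% of all genes, and neither Syk (-0.97) nor Blnk (-0.998) was past 2-fold. Of 10 inhibitory receptors and phosphatases, 5 were lower, including Siglecg (-2.63), Cd72 (-1.60) and Btla (-1.36), and Ptpn22 was higher (2.03). Of the 10, 4 were lower without the 11 cells.

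The lists of B cell states gave the following counts. Of 9 follicular naive genes, 6 were lower and 0 higher, with a median of -1.90, among them Fcer2a, Bach2, S1pr1, Klf2 and Cxcr5. Ighd belongs to that list and chose the subsets, so it was not counted. Of 10 plasmablast genes, 6 were higher, with a median of 1.22, and these were genes of the secretory pathway: Mzb1 (1.45), Sec11c (1.42), Hsp90b1 (1.22), Ssr4 (1.21), Creld2 and Xbp1. Irf4 (-1.07), a driver of plasma cell fate, was lower with all cells, but within 2-fold without the 11 cells (-0.91). Prdm1, the master regulator of plasma cells, had 6 UMIs in class-switched and 5 in Ighd-positive cells and was too low to be counted. Of 7 memory genes, Cd80 (3.23), Cd44 (1.98) and Tle3 (1.66) were higher and Pdcd1lg2 lower. Of 7 B1 genes, Bhlhe41, Ctla4 and Itgb1 were higher, with a median of 0.95 (2.19 without the 11 cells), while Cd5, the surface marker of B1a cells, had 0 UMIs in all 458 knockout B cells. Of 6 age-associated genes, Cxcr3 and Lgals1 (2.02) were higher and S100a6 (-1.08) lower. Leaving out the 11 cells gave 3 higher and 0 lower, with S100a6 at -0.49. Tbx21, which encodes T-bet, had 11 UMIs in class-switched and 2 in Ighd-positive cells, and Itgax, which encodes CD11c, had 5 and 0, both too few to be counted. The marginal zone list changed sign with the cells used, from a median of -0.87 over 8 genes to 0.82 over 7 genes without the 11 cells. Of 6 genes on the germinal centre list, Fas and Basp1 were higher and Bcl6, Cd38 and Gpr174 lower. Mouse germinal centre B cells have low Cd38, so the counts of this list do not read in 1 direction. Response genes of interferon gamma, with 2 higher and 1 lower of 17, and of type I interferon, with 1 higher and 5 lower of 17, had medians of 0.44 and -0.46. Leaving out the 11 cells, the counts were 4 higher and 1 lower of 17, and 1 higher and 3 lower of 16.

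**Figure D4:**
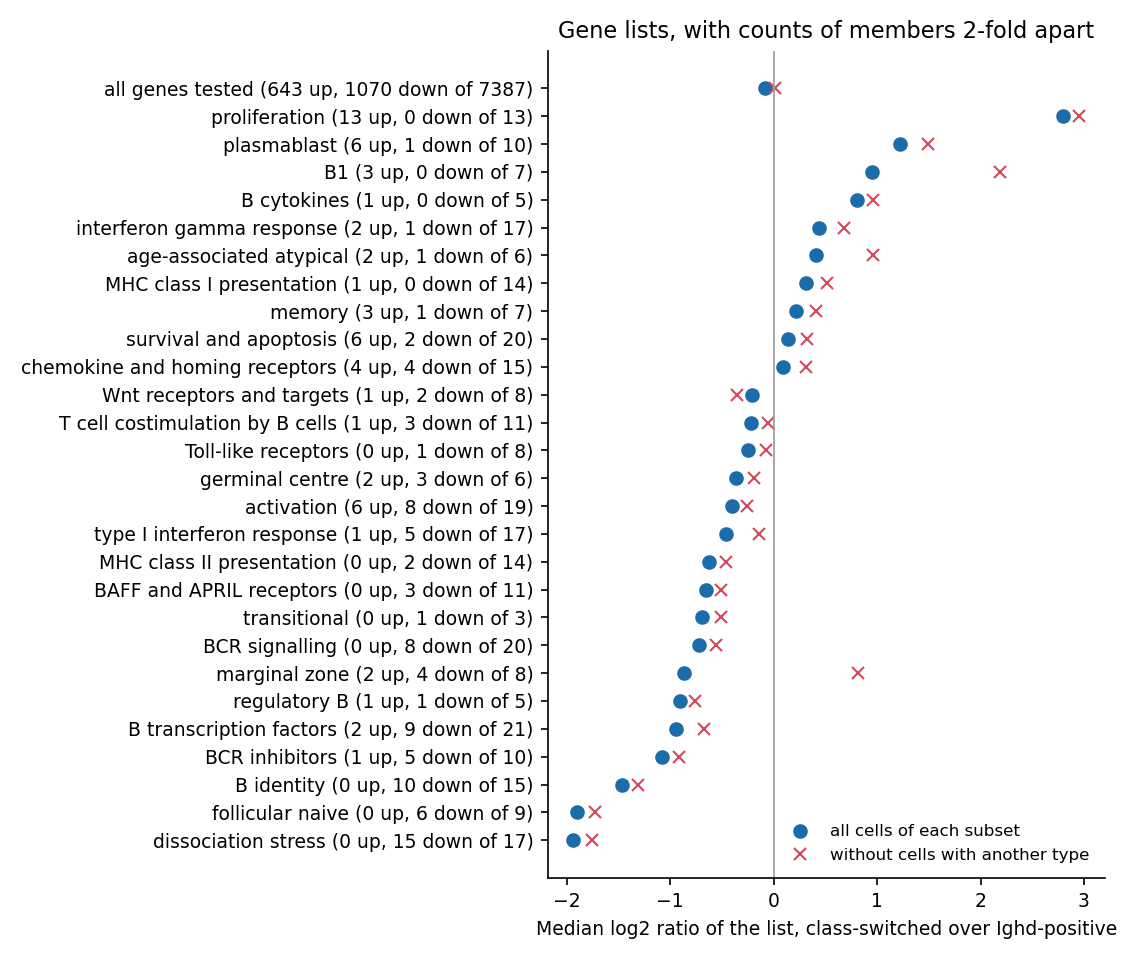
Median log2 ratio of class-switched over Ighd-positive knockout B cells for each B cell gene list with at least 3 genes measured, beside all genes tested, with marker lists of other cell types left out and the B identity list including genes that chose the cells; the labels count members at least 2-fold up or down, and crosses leave out the cells with another type's genes. Among the lists drawn, proliferation lay highest at 2.80 and dissociation stress lowest at -1.94, against -0.08 for all genes. A gene could pass the filter on UMIs through the subset where it was higher, which affects the medians of lists with few UMIs.

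Genes that tissue dissociation induces were lower in class-switched cells as well, and they overlap with genes of recent activation. Of 17 such genes, 15 were lower and 0 higher, with a median of -1.94 (15 lower, 1 higher and -1.76 without the 11 cells). Egr1 stood at 115 CPM in Ighd-positive and 5.66 CPM in class-switched cells, and Fos at 359.9 and 70.8 CPM. Of 19 activation genes, 8 were lower, among them Nr4a1 (log2 -2.36), Cd83 (-1.58) and Cd69 (-1.43), and 6 were higher, among them Cd80, Cd44 and Bcl2a1b (2.15). Ccl22, also in that list, had 31 UMIs in 2 class-switched cells and 0 in Ighd-positive cells. Activation in the tumour and handling of the cells cannot be told apart for these genes.

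Homing receptors divided into those higher and those lower. Of 15 measured, 4 were higher and 4 lower, with a median of 0.09. The higher were Cxcr3 and the integrin genes Itgb1 (log2 2.48), Itga4 (1.56) and Itgb2 (1.36). Among the lower were Cxcr4 (-2.75), S1pr1 (-2.23), the receptor for exit from lymphoid tissue, and Cxcr5 (-1.55), the receptor for Cxcl13. Ccr7 (0.54; -0.04 to 1.05) and Ccr6 (0.46; -0.09 to 0.95) had intervals that included 0.

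Antigen presentation was high in knockout B cells. The MHC class II list summed to 18104 CPM in B cells, 923 CPM in T cells, 7685 CPM in plasma cells, 32232 CPM in C1q macrophages and 39971 CPM in type 1 dendritic cells. B cells thus stood between plasma cells and the myeloid populations. Within B cells the list summed to 19731 CPM in Ighd-positive, 13402 CPM in class-switched cells and 16756 CPM in cells of neither subset. These sums include the 11 cells with another type's genes, 1 of them the class-switched islet hormone cell. Cd74, the invariant chain, was the main part, at 8026 CPM in B cells, and H2-Aa stood at 2869 CPM. Of 14 class II genes, 2 were lower in class-switched cells and 0 higher: Ciita (log2 -1.67), the transactivator of the pathway, and H2-Ob (-1.12). Without the 11 cells H2-Ob was within 2-fold (-0.93), which left 1 of 14 lower. Cd74 (-0.66) and H2-Aa (-0.63) stayed within 2-fold. Costimulatory genes were read too: Cd86 at 164 CPM and Cd40 at 80.7 CPM over all knockout B cells. Their log2 ratios between the subsets were -0.21 (-0.74 to 0.24) and -0.62 (-1.45 to 0.02), with intervals that included 0.

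Receptors for survival factors and innate ligands were read in B cells of each subset. Tnfrsf13c, which encodes the BAFF receptor, stood at 190.3 CPM in all knockout B cells and 1.27 CPM in T cells, and Tnfrsf13b, which encodes TACI, at 124 CPM. Neither reached 2-fold between the subsets (-0.36 and 0.48). Tnfrsf17, which encodes the plasma cell receptor BCMA, had 2 UMIs in all B cells. Of 11 genes of the BAFF, APRIL and cytokine receptor list, 3 were lower (Il10ra, Il4ra and Ifnar1) and 0 higher. Tlr7 stood at 25.9 CPM and Tlr9 at 7.07 CPM. Ltb, which encodes lymphotoxin beta, a cytokine that organises lymphoid stroma, had 931 UMIs and 549 CPM (514 to 585) in B cells, below its 674 CPM (655 to 694) in T cells. Tnf was read at 14.1 CPM. Il10, the cytokine of regulatory B cells, had 0 UMIs in 458 cells, which allows up to 1.77 CPM. Il6 had 1 UMI.

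Wnt receptors and targets were also examined, since Porcn acts on Wnt secretion. Of 8 genes measured between the subsets, Ccnd2 (log2 2.13) was higher and Ccnd3 and Tcf7l2 were lower, Tcf7l2 with an interval that included 0 (-3.81 to 0.26). Lrp6, a Wnt co-receptor, had 69 UMIs and 40.7 CPM in knockout B cells. Lef1, a nuclear effector of the pathway, had 19 UMIs, all 19 in Ighd-positive cells, and stood at 11.2 CPM against 180 CPM in T cells. Control B cells held 2 Lef1 UMIs, too few for a comparison.

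A few knockout B cells carried germinal centre transcripts. Rgs13, a regulator of chemokine signalling typical of germinal centre B cells, was found in 3 of 458 knockout B cells (0.655%; 0.135 to 1.90) and in 1 of 1576 T cells. Of the 3 cells, 1 was Ighd-positive and 2 met neither isotype rule. The first of these 2 held 8 Rgs13, 11 Mki67, 10 Top2a and 31 Ighm UMIs among 11722. The second held 3 Rgs13, 9 Mki67, 10 Top2a, 12 Ighm and 4 Bcl6 UMIs among 10911. Ighd was 0 in each, so both were cycling-gene-positive cells with IgM transcripts.

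Clustering of the 458 knockout B cells without immunoglobulin genes gave 4 clusters, described here by number and by their leading genes, with no test. Clusters 1 and 2 held 224 and 165 cells and were Ighd-positive in 89.7% and 87.9%. Cluster 3 held 62 cells, of which 32 were class-switched (51.6%, with an interval of 38.6 to 64.5) and 17 Ighd-positive, although no isotype gene was used. Its median depth was 5718.5 UMIs, against 3141 and 2499 in clusters 1 and 2, and the part of depth in this cluster was not tested. Cluster 3 also held the islet hormone cell and the 2 cells with at least 50 Lyz2 UMIs. It was led by Top2a, Sema7a, Ly6c2, Hmgn3, Cxcr3, Ass1, Bhlhe41, Fas, Ccnd2 and Kcnn4, the last of which stood at 17.1 CPM in B cells and 154 CPM in keratin-positive cells. Of 7821 genes, 8.54% were at least 2-fold higher in it than in the other B cells and 9.82% lower. Cluster 4 was the 7 cells with fibroblast genes, led by Slit3, Pdzrn3 and Sfrp2.

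The 53 cells of neither subset were spread over the clusters, with 23 in cluster 1, 15 in cluster 2, 13 in cluster 3 and 2 in cluster 4. Ighm was present in 41 of them, with a median of 3 UMIs, so most were unswitched cells in which no Ighd was read.

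Clusters 1 and 2 separated the Ighd-positive cells. Cluster 1 was led by Bbs9 (log2 1.996 against the other B cells), Pgap1 (1.92), Notch2 (1.78), the receptor that directs marginal zone fate, Kdm7a (1.59), Satb1 (1.56) and Foxp1 (1.50). Cluster 2 was led by Acp5 (1.18), Syf2 (0.86), Fcmr (0.85), the IgM Fc receptor, Vpreb3 (0.82) and Fcer2a (0.78), and 1.61% of genes were at least 2-fold higher and 10.1% lower in it than in the other B cells, against 6.51% and 7.75% in cluster 1. Fcer2a was found in 41.1% of cluster 1 and 44.8% of cluster 2. Cr2 was read at 245 CPM and 158 CPM. The median genomic length of the 50 leading genes was 88.6 kb in cluster 1 and 6.65 kb in cluster 2, against 27.8 kb for all genes tested. Ribosomal protein genes took 11.5% of UMIs in cluster 1 and 14.9% in cluster 2, and the nuclear RNA Malat1 stood at 25954 CPM and 19468 CPM. The median depth was 3141 UMIs and 2499 UMIs. The part of gene length, nuclear RNA and depth in this separation was not tested.

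The control library gave too few B cells for a description of subsets. Of its 9 cells, 6 held a Cd79a or Ms4a1 UMI, and the other 3 held Bank1 without any other B gene. Of those 3 control cells, 1 held 923 S100a8, 1706 S100a9, 310 Ngp and 332 Camp UMIs, which are neutrophil granule genes. Another held 5 Csf3r, 3 Cxcr2, 7 Il1b, 3 S100a8 and 6 S100a9 UMIs, and the last held 12 Il1b UMIs. With a Cd79a or Ms4a1 UMI required, 6 control and 443 knockout cells remained, with a ratio of shares of 79.7 (36.3 to 218). The largest control cell held 53.2% of all control B cell UMIs, 148 Ighm UMIs, 30 Mki67 UMIs and 25 Top2a UMIs. The B cell genes that could be read in the rest were those of the label: Pax5 was found in 5 of the 9 cells and Ighd in 4.

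Set against these 9 cells, the knockout B cells had 106 of 1193 genes higher (8.89%) and 57 lower (4.78%), by at least 2-fold and with a counting interval that left out 1. The median log2 ratio was 0.13. With TMM scaling, 170 were higher and 19 lower, with a median of 0.58. Single cells accounted for the extremes. Ngp, S100a8, S100a9 and Camp, with 310, 926, 1712 and 332 UMIs in control B cells, were lower in knockout cells, and nearly all of these UMIs came from the control cell with granule genes. In knockout B cells they stood at 0.589, 4.12, 11.2 and 1.77 CPM, below the 16.4, 75.3, 119 and 31.5 CPM of knockout T cells. Lyz2 had 63 UMIs in control and 400 in knockout B cells, a log2 ratio of -2.69. A single control cell held 98.4% of the 63 UMIs. Of the 400 UMIs in knockout B cells 11 remained without the 11 cells (7.04 CPM), since 2 of those held 198 and 190, and C1q macrophages of that library stood at 4670 CPM of Lyz2. Ins2, Ins1 and Iapp were higher in knockout cells and were read almost wholly in 1 cell. Cd69, an early activation marker, had 460 UMIs in knockout and 0 in control B cells. Hsph1, a heat shock gene, had 454 and 0. Against the floor of 3 counts they were 3.80-fold and 3.75-fold higher, and their log2 intervals began at 1.62 and 1.60. Of the control B cell UMIs, 53.2% came from the cell that held most and 15.3% from the cell with granule genes. Mki67 was at 59.5 CPM (48.5 to 72.3) in knockout and 760 CPM (520 to 1073) in control B cells, where 30 of 32 UMIs came from 1 cell. Without the control cell that held most UMIs, 153 genes of 444 were higher and 18 lower. With the 11 knockout cells and the 3 control cells without Cd79a and Ms4a1 left out, 58 of 806 were higher and 53 lower.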

How the data were processed

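Tumours of 5 mice per genotype were pooled into 1 droplet library each, made with a 10x Genomics 3′ kit per the labels. The authors deposited UMI counts per gene and barcode, not normalised. Cell Ranger 8.0.0 wrote them, per the file headers, whereas the submitters' processing notes name Cell Ranger 3.1.3 and mm10, and the conflict was not settled. There were 13766 control barcodes with 173934025 UMIs and 12251 knockout barcodes with 137527647. Of these barcodes 84.7% and 88.2% passed the cell filter, and 46 barcode sequences occurred in both libraries, 3 of them B cells in 1 library. Of 32285 genes, 32158 had a GENCODE M21 entry (GRCm38).

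Shares have exact Clopper-Pearson intervals, sums exact Poisson intervals and ratios exact conditional intervals, at 95%; a count of 0 has a floor of 3 counts. Shares at 1000 UMIs are the hypergeometric expectation over draws without replacement, with an interval for the rounded number of cells. Kappa needed at least 3 Igkc UMIs and 5 times the lambda sum, and lambda at least 3 UMIs and more than Igkc. Comparison with control used genes with at least 5 UMIs expected in the control cells. T cells held at least 2 UMIs of Cd3d, Cd3e, Cd3g and Trac, C1q macrophages at least 3 of the C1q genes, type 1 dendritic cells at least 2 of Xcr1 and Clec9a, and keratin-positive cells at least 6 of the keratin genes without Ptprc. Clusters came from scanpy 1.11.5 with leidenalg 0.10.2 (counts to 10000 per cell, 2000 variable genes without immunoglobulin and mitochondrial genes, scaled to 10, 20 components, 15 neighbours, resolution 0.5, seed 0). Scrublet ran with an expected rate of 0.08, and its calls were kept. The step that compares sums was tested on simulated sums with Poisson error around a pooled profile. That simulation had no spread between cells, so it does not cover sums led by single cells. edgeR 4.0.16 gave TMM factors for an alternative and no test.

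Named genes were the 10 with the largest ratio per subset side or cluster, detected in at least 25% of cells on the high side and with at least 20 UMIs, the 5 at each end against control, and list members by role. Members and the 39 lists were chosen with earlier results of these data known. Genes at least 5 times higher in another population are given with that level. Samples have no replicates, so p-values are not given. A few list members are not reported here.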

Additional observations from a re-analysis of the deposited data

How the results depend on the processing

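No paired analysis was possible because each genotype had 1 pooled library. Of the 10 main results under their alternatives, 49 values stayed within the counting interval of the main value (counts of genes or clusters: within 1.5 times), and 16 moved; the cause was not tested. The knockout share was 3.77% with all barcodes, 6.43% without limits on other cell types' genes and 11.2% among cells with Ptprc. The control share was 0.463% and 0.593% under the latter 2, and the ratio 13.9 and 18.8. The Ighd share was 80.6% without thinning and 73.2% at 2000 UMIs, which follows from depth. The class-switched share was 4.59% with at least 10 switched UMIs. Genes 2-fold apart between the subsets numbered 1713 at first, 4879 with no filter on low counts and 475 with at least 100 UMIs, the numbers tested being 15422 and 2336. With a pseudocount of 5 there were 1245, of which 66.3% were higher, against 37.5%. Genes apart between knockout and control B cells numbered 163 at first, 762 with no filter, 19 with 25 expected UMIs and 87 (21 higher, 66 lower) with a pseudocount of 5. Resolution 1 gave 7 clusters, 1 of which held 32 of the 37 class-switched cells. The 20 named genes of the subset comparison kept their direction as a mean over cells, with a pseudocount of 5, without doublet calls and without the 11 cells; the filters cannot change a gene's own ratio, and TMM shifts all genes alike. Of the list medians 195 stayed and 17 moved. Alternatives that left out the 11 cells, required Cd79a or Ms4a1, or left out the largest control cell were chosen after the data were seen. No heavy-chain variable gene reached 10 UMIs in a cell, so that alternative gave no value. With 9 control B cells, depth limits any comparison of B cell state between the genotypes.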
